A study of Drosophila melanogaster with 382 samples.

Results

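Translation initiation factors are the proteins that bring the ribosome, the initiator tRNA and a messenger RNA together. In the embryonic gene table analysed here, they were taken as every named gene whose symbol starts with eIF, which gave 29 of 13587 named genes. The rule reads only the symbol, so that factors filed under another name, such as the eIF3 subunit Int6, were described as partners and not as members. RNA was sequenced from successive frozen slices cut along the head-to-tail axis of single Drosophila melanogaster embryos, 382 slices of 25 embryos in all, of which 338 had gene values in FPKM (fragments mapped to a gene, scaled by its length and by the mapped fragments of the library). The embryo, and not the slice, was the replicate throughout.

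The embryos came from 5 genotypes between nuclear cycles 11 and 14, and cycle 14 was split into the stages A to E. Wild type was Canton-S, with 1 embryo each at cycles 11, 13, 14A, 14B, 14C, 14D and 14E. The zld embryos were laid by mothers whose germ line was made of clones mutant for zelda (zld-) and which carried a His2Av-RFP histone marker, with 1 embryo each at cycles 11, 14A, 14B and 14D and 3 at cycle 13. The bcd RNAi and hb RNAi embryos came from aged mothers in which maternal tubulin Gal4 drove a UAS hairpin against bicoid or hunchback, so that the maternal supply is depleted rather than deleted. The 2.4x bcd embryos came from the G20 line, which overexpresses Bicoid as an eGFP-Bcd fusion. The paper gives younger mothers for these embryos than for the RNAi lines, so that maternal age and line cannot be told apart between them. There were 2 embryos each at cycles 13 and 14D for bcd RNAi and for 2.4x bcd, and 1 embryo at cycle 13 and 2 at cycle 14D for hb RNAi. TruSeq, an unstranded kit, was used for wild type and zld, from thicker slices with yeast carrier RNA, and SMARTseq2 without a carrier for the other 3 lines, so that kit, slice thickness and genotype cannot be told apart between these sets.

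In the first steps of initiation, eIF2 carries the initiator tRNA to the small ribosomal subunit in its GTP-bound form, eIF1A and eIF3 prepare that subunit, eIF5 triggers GTP hydrolysis and eIF2B reloads eIF2 with GTP. The messenger is held at its cap by eIF4E, whose partner eIF4G is a scaffold for the RNA helicase eIF4A and for eIF3, and eIF5B then joins the large subunit. The early embryo is transcriptionally silent at first and translates messengers that its mother left in the egg, until these are cleared and the zygotic genome takes over around cycle 14.

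All levels here are relative to the rest of the library, and less RNA per cell cannot be told apart from fewer cells with that RNA. In the 22 embryos with enough slices for position, the anterior marker bcd was higher in front in 21, oc in 19 and ems in 16. Of the posterior markers, nos was higher in the hindmost slice in 21, pgc in 20, osk in 17 and gcl in 14. Follicle cell genes from the mother's ovary stayed at or below 1.74 FPKM. The perturbed genes were checked first: bcd was at 6.31 to 9.72 FPKM in bcd RNAi at cycle 13 against 132.0 to 156.0 in 2.4x bcd, hb was at 4.55 in hb RNAi at cycle 13 against 19.1 to 49.8 in the other SMARTseq2 lines at that cycle, and vfl, the zelda gene, was at 0 to 5.01 in zld against 2.3 to 10.2 in wild type, with overlap. At cycle 14D, where the lines are compared, the levels did not set the depleted line apart from the other RNAi line: hb was at 19.2 to 29.9 FPKM in hb RNAi against 20.1 to 24.4 in bcd RNAi and 42.5 to 48.4 in 2.4x bcd, and bcd was at 0.928 to 1.84 in bcd RNAi against 0.622 to 0.723 in hb RNAi and 4.21 to 11.3 in 2.4x bcd. Several libraries stood apart. In the hb RNAi embryo at cycle 13, genes with transcripts under 1000 bases were higher than in the other SMARTseq2 embryos at that cycle, by a median of 0.90 on the log2 scale, and genes with transcripts of 3000 to 4000 bases were lower, with a median difference of -1.34. The 3 zld embryos at cycle 13 had only 3 to 5 slices and no position value, and the second bcd RNAi embryo at cycle 14D was the 1 embryo of 22 in which bcd was not higher in front. Its hindmost slice was not rich in pgc either, with a log2 difference from the rest of 0.02, and neither were those of zld at cycles 11 (-0.19), 14A (-0.62) and 14D (0.06). It was also under 4 times the rest in wild type at cycles 11 (0.46) and 13 (0.53). The same held for the first bcd RNAi embryo (1.55) and the hb RNAi embryo (1.71) of cycle 13, and for the second hb RNAi embryo of 14D (1.9). From the smallest steps between low FPKM values, a median of 834271 fragments per wild-type slice and 2003075 per zld slice was estimated, where counting error alone at 10 FPKM is 28.3% and 18.2% for a gene of 1500 bases. The depth of the SMARTseq2 slices could not be estimated in this way and is unknown.

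The members differed widely in abundance. Averaged over the slices of an embryo and then over the 25 embryos, 12 members were at 100 FPKM or more, 10 at 10 to 100, 2 at 1 to 10 and 5 below 1. The most abundant was eIF-5A (2R, 24057798 to 24059483, plus strand, in FlyBase Release 6), with 1697, 4625 and 10660 FPKM in the lowest, median and highest embryo. It is now named eEF5, since it carries the modified amino acid hypusine and acts mainly in elongation. Its level made up 19.8% to 74.2% of the sum over the 29 genes, which was itself 6500 to 14370 FPKM. The helicase eIF-4a (2L, 5981764 to 5985909, plus strand) followed with 1072, 1823 and 3335 FPKM, or 10.8% to 38.9% of the sum. No other member exceeded 1000 FPKM in any embryo.

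Among the subunits of eIF3, the lowest, median and highest embryo were at 274, 461 and 755 FPKM for eIF-3p40 (eIF3h), at 162, 261 and 703 for eIF-3p66 (eIF3d1) and at 69.2, 229 and 427 for eIF3-S9 (eIF3b). The subunits eIF3-S8 (eIF3c) and eIF3-S10 (eIF3a) had medians of 183 and 125 FPKM. eIF-3p40, with a mean of 461 FPKM and an SD of 101 over the 25 embryos, was called in none of the comparisons below. Of the genes for the eIF2 complex and its partners, eIF-1A had a median of 223 FPKM, eIF-2alpha 87.3, eIF-2beta 87.5 and eIF-2gamma 60.6. The GTPase-activating factor eIF5 ranged from 31.4 to 482 FPKM with a median of 318, with its lowest values all in one set of libraries, as given below. The 5 subunits of the exchange factor eIF2B were lower, with medians of 52.3 for beta, 50.5 for alpha, 17.6 for gamma, 15.7 for epsilon and 11.8 for delta.

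At the cap, eIF-4E had 41.9, 138 and 706 FPKM in the lowest, median and highest embryo, and its partner eIF4G had 9.46, 32.8 and 142. The helicase eIF4AIII, a core protein of the exon junction complex that in flies is needed to localise oskar RNA, was at 69.4, 274 and 592. The subunit-joining factor eIF5B had a median of 13.3 FPKM and eIF6, which keeps the large ribosomal subunit from joining too early, one of 46.6. Levels of neighbours in these orders overlapped between embryos and the order is a description only.

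**Figure D1:**
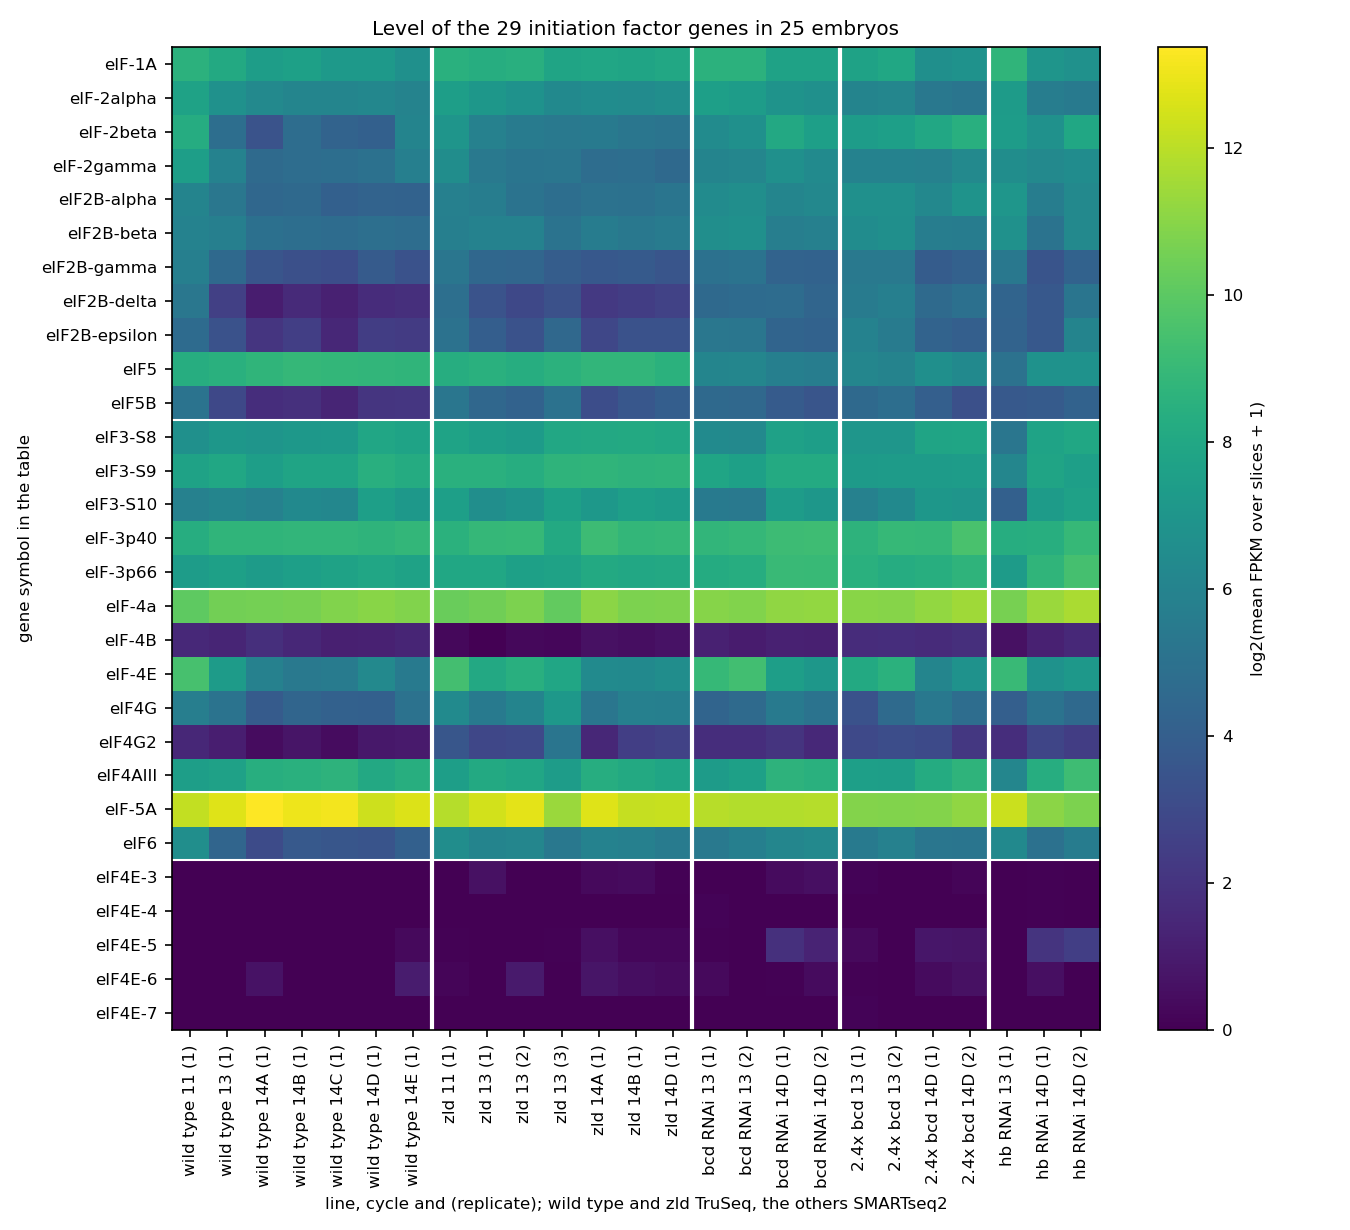
Level of the 29 genes in the 25 embryos. Rows are genes, columns are embryos grouped by line and stage, and the colour gives log2(mean FPKM over the slices of the embryo + 1). eIF-5A and eIF-4a are the brightest rows throughout, the 5 eIF4E paralogs are the darkest, and eIF5 is darker in the 11 SMARTseq2 embryos than in the 14 TruSeq embryos.

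The paralogs of eIF-4E were nearly silent. Of 338 slices, eIF4E-4 was listed at 0 in 331, eIF4E-7 in 323, eIF4E-3 in 299, eIF4E-6 in 297 and eIF4E-5 in 222. Their highest embryo means were 0.0811 FPKM for eIF4E-4, 0.0928 for eIF4E-7, 0.523 for eIF4E-3 and 1.05 for eIF4E-6. eIF4E-3 is known to serve the testis in flies. eIF4E-5 alone reached more, with 4.58 FPKM in the highest embryo. The scaffold paralog eIF4G2, needed in the male germ line of flies, was low but present, with 0.339, 3.10 and 35.9 FPKM in the lowest, median and highest embryo. No test was made for eIF4E-3, eIF4E-4, eIF4E-6 and eIF4E-7, which were below a mean of 1 FPKM in each of the sets of embryos compared.

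eIF-4B, which assists the helicase eIF4A, had a level that depended on how it was counted. Its mean was 1.28 FPKM, at rank 6671 of all genes, while the second table of the same libraries, in TPM per transcript (a length-scaled share of the library's transcripts), gave it 275.5 TPM, at rank 251. The TPM-to-FPKM ratio was therefore 215 for eIF-4B, against a median of 0.554 over 6471 genes of at least 1 in both tables. In the TPM table eIF-4B ranged from 35.5 to 545 over the embryos. The gene (3L, 27842669 to 27858271, minus strand) overlaps CR14578 and lncRNA:CR46482 in the annotation, and its FPKM values are therefore uncertain in what follows.

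To ask how the set changes as the wild-type embryo passes from maternal to zygotic control, the level was fitted as a straight line over the 7 ordered stages. In wild type, messengers for eIF-1A, eIF-2alpha and eIF2B-alpha fell and those for the large eIF3 subunits eIF3-S8 and eIF3-S10 rose. These were the 5 called of 23 members tested (limma, Benjamini-Hochberg adjusted p under 0.05), beside 20.6% of all genes called (8.88% higher and 11.7% lower), so that the share of the members was near the background. The median slope was -0.20 over the members and -0.09 over all genes, in log2(FPKM + 1) per stage. Each stage had 1 embryo, so that the scatter around the line is all that stands for biological variation.

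eIF-1A, in the order 11, 13, 14A, 14B, 14C, 14D and 14E, was at 389.7, 279.6, 174, 195, 149, 153 and 106 FPKM. It thus fell by 0.27 per stage on the log2 scale (SE 0.05, adjusted p = 0.014). eIF-2alpha was at 209.5, 107, 77.5, 65.9, 66.3, 71.1 and 62.7 FPKM, with most of its fall before cycle 14 (slope -0.23, SE 0.07, adjusted p = 0.0432). eIF2B-alpha was at 64.2, 38.5, 21.2, 22.5, 16.3, 17.9 and 17.1 FPKM (slope -0.29, SE 0.08, adjusted p = 0.0358). All 3 were highest at cycle 11 and next highest at cycle 13.

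The rising subunits had a different course. eIF3-S10, the largest subunit of eIF3, was at 58.4, 68.0, 58.0, 79.3, 71.8, 185 and 138 FPKM (slope 0.24, SE 0.07, adjusted p = 0.0405), so that the embryos of cycles 14D and 14E were above the rest. eIF3-S8 was at 102, 135, 124, 137, 144, 241 and 218 FPKM (slope 0.18, SE 0.04, adjusted p = 0.0285), again with the same embryos on top. eIF-4E, although not called (adjusted p = 0.0586), went from 706 FPKM at cycle 11 and 160.3 at cycle 13 to 41.9 to 79.0 in the 5 cycle 14 embryos. Without the cycle 11 embryo or without the cycle 13 embryo 0 members were called, and without the embryo of 14B, 14C, 14D or 14E 2 were. The TPM table called 1, higher, and the length-trend correction 3 higher and 0 lower, with eIF-1A at -0.13, eIF-2alpha at -0.10 and eIF2B-alpha at -0.17.

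The replicated comparison of stages was that between cycles 13 and 14D within the 3 SMARTseq2 lines, with 5 and 6 embryos. By cycle 14D, messengers for the cap-binding protein eIF-4E, for eIF1A, for eIF2alpha and for the eIF2B subunits beta and gamma had fallen, and messengers for eIF3 subunits, for the helicases and for the scaffold eIF4G had risen. In all, 9 of 25 members tested were higher and 6 lower, or 8 and 6 of 24 without eIF4E-5, which was below a mean of 1 FPKM at cycle 13. Among all genes 69.3% were called (33.2% higher and 36.2% lower), so that 15 of 25 is no more than the background. The median difference was 0.19 over the members and -0.10 over all genes on the log2 scale. Over all genes the difference ran with transcript length, from a median of -0.43 under 1000 bases to 0.56 over 4000 bases. With this trend removed, eIF-4E was at -1.61, eIF-1A at -0.85, eIF3-S10 at 1.63, eIF3-S8 at 1.33 and eIF4G at 0.36. Here and below, ranges said not to overlap are a description only. The share of all genes without overlap was not counted.

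The largest fall was that of the cap-binding protein gene eIF-4E (3L, 9399618 to 9402460, minus strand). At cycle 13 it was at 489 and 640.2 FPKM in bcd RNAi, 283 and 378 in 2.4x bcd and 544 in hb RNAi, and at cycle 14D the lowest, median and highest of 6 embryos were at 66.4, 123 and 178. The stages did not overlap. eIF-4E thus fell by 1.94 on the log2 scale (SE 0.20, adjusted p = 3.21e-06), which is 3.85-fold, and was called in each of the settings tried. The TPM table, in which its change was -1.38, gave the same call.

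The early factors followed. eIF-1A was at 387 and 382 FPKM in bcd RNAi, 209 and 248 in 2.4x bcd and 434 in hb RNAi at cycle 13, and at 101, 118 and 210.1 in the lowest, median and highest embryo at cycle 14D (log2 difference -1.22, SE 0.20, adjusted p = 0.000144). It was lower at cycle 14D within each line, although the 2.4x bcd embryos at cycle 13 met the bcd RNAi embryos at cycle 14D. eIF-2alpha, the subunit that stress kinases phosphorylate, was at 189 and 165 FPKM in bcd RNAi, 64.2 and 70.5 in 2.4x bcd and 162 in hb RNAi at cycle 13, and at 35.6, 47.4 and 115.2 at cycle 14D (log2 difference -1.01, SE 0.21, adjusted p = 0.00103). Its stages overlapped because the 2.4x bcd line was low at both. eIF-2alpha was not called in the TPM table (-0.44).

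Of the exchange factor, eIF2B-gamma, a catalytic subunit, was at 30.3 to 40.9 FPKM in the 5 embryos of cycle 13 and at 10.02 to 18.04 in the 6 of cycle 14D, without overlap (log2 difference -1.18, SE 0.23, adjusted p = 0.000583). eIF2B-beta, a regulatory subunit, was at 89.3 to 109 FPKM and then at 32.7 to 77.6, again without overlap (-0.96, SE 0.23, adjusted p = 0.00243). The subunits alpha, delta and epsilon were not called. eIF5B was the sixth member to fall, by 0.66 on the log2 scale (SE 0.27, adjusted p = 0.0445), and its call was lost in 12 of 22 other settings, among them leaving out any 1 of the 8 bcd RNAi and 2.4x bcd embryos. In the TPM table the falls of eIF2B-beta (-0.39), eIF2B-gamma (-0.66) and eIF5B (-0.17) were no longer called.

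On the rising side, eIF3-S10 (3R, 4429798 to 4433895, minus strand) was at 43.7 and 41.9 FPKM in bcd RNAi, 58.0 and 81.8 in 2.4x bcd and 16.1 in hb RNAi at cycle 13, and at 125, 150.1 and 204 in the lowest, median and highest embryo at cycle 14D. It rose by 1.87 on the log2 scale (SE 0.33, adjusted p = 0.000294). eIF3-S8 was at 84.4 and 77.2 FPKM in bcd RNAi, 132 and 130.3 in 2.4x bcd and 37.2 in hb RNAi, and then at 182, 221 and 253 (1.42, SE 0.26, adjusted p = 0.000378). Neither gene overlapped between the stages, and the hb RNAi embryo at cycle 13 was the lowest of all for both. eIF-3p66 (0.79, SE 0.25, adjusted p = 0.0127) and eIF3-S9 (0.58, SE 0.23, adjusted p = 0.0413) rose too, and eIF-3p40 was the 1 subunit of 5 that was not called (0.38, SE 0.18, adjusted p = 0.0809).

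eIF4AIII was at 163 and 195 FPKM in bcd RNAi, 189.5 and 181 in 2.4x bcd and 69.4 in hb RNAi at cycle 13, and at 304, 385 and 592 in the lowest, median and highest embryo at cycle 14D (1.42, SE 0.28, adjusted p = 0.00062). It did not overlap between the stages. eIF-4a, at 1569 to 2037 FPKM and then 2324 to 3335, did not either, with a smaller difference (0.48, SE 0.16, adjusted p = 0.0153). eIF4G was at 9.46 to 24.1 FPKM at cycle 13 and at 23.2 to 43.7 at cycle 14D (0.91, SE 0.27, adjusted p = 0.00933). It lost its call when each embryo's trend with transcript length was removed (0.36).

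eIF4E-5 came on from almost nothing. At cycle 13 it was at 0.0506 and 0 FPKM in bcd RNAi, 0.248 and 0 in 2.4x bcd and 0 in hb RNAi, and at cycle 14D it was at 0.703, 2.04 and 4.58 in the lowest, median and highest embryo. The stages did not overlap. Since it passed the filter on low values only through the embryos of cycle 14D, it had to differ, and its call in this and the next comparisons adds nothing to these values. eIF-2beta rose by 0.73 (SE 0.27, adjusted p = 0.0297), a call that was lost in 7 of 22 other settings (adjusted p up to 0.0889), 6 of which left out 1 embryo. The members tested and not called were eIF-5A, eIF6, eIF5, eIF-2gamma, eIF-3p40, eIF-4B, eIF4G2, eIF2B-alpha, eIF2B-delta and eIF2B-epsilon.

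**Figure D2:**
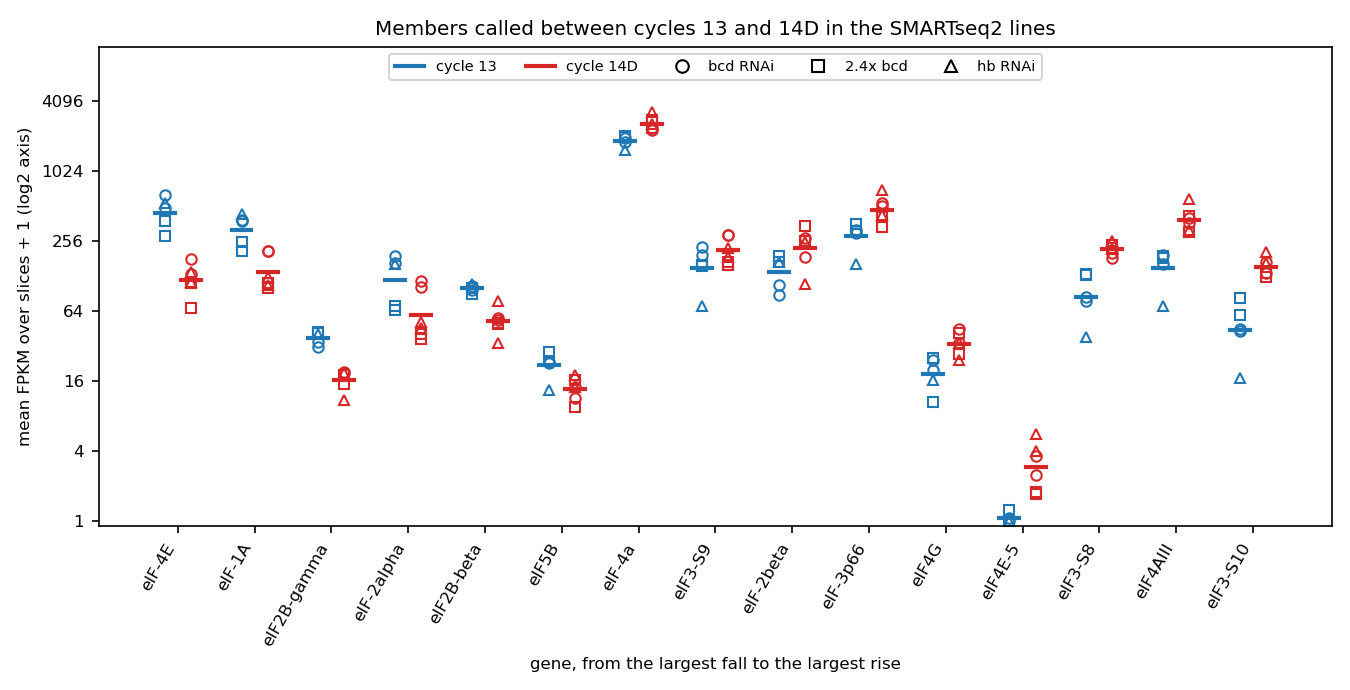
Level of the 15 members called between cycles 13 and 14D in the SMARTseq2 lines. The axis gives mean FPKM + 1 on a log scale. Each point is 1 embryo, the symbol gives its line, blue is cycle 13 (5 embryos), red is cycle 14D (6 embryos) and the bar is the mean on the log scale. The colours do not overlap for eIF-4E, eIF2B-beta and eIF2B-gamma, which are lower at 14D, nor for eIF-4a, eIF3-S10, eIF3-S8, eIF4AIII and eIF4E-5, which are higher. The share of all genes without overlap was not counted.

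The hb RNAi embryo at cycle 13, whose values ran with transcript length as described above, touched these differences. Without it 15 of the 25 members were still called, 8 higher and 7 lower, but eIF3-S9 was lost (0.25, adjusted p = 0.141), eIF-3p66 went from 0.79 to 0.47, eIF3-S10 from 1.87 to 1.35, and eIF3-S8 and eIF4AIII each from 1.42 to 1.02. Its part in the stage differences was not tested further.

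The same embryo carried the comparison of the stage change between lines. The F test of line by stage called 11 of the 25 members (10 of 24 without eIF4E-5), beside 38.4% of all genes, and called 0 without the hb RNAi embryo at cycle 13. It called 6 or 7 without either embryo of cycle 13 of the other lines, the second bcd RNAi embryo of 14D or the first 2.4x bcd embryo of 14D. eIF5 had the smallest adjusted p, with changes of -0.41 (SE 0.20) in bcd RNAi, 0.43 (SE 0.20) in 2.4x bcd and 1.80 (SE 0.25) in hb RNAi on the log2 scale (adjusted p = 0.00212 for the difference, and 0.219 without that embryo). eIF3-S10 rose by 1.79 in bcd RNAi, 0.91 in 2.4x bcd and 3.43 in hb RNAi (adjusted p = 0.00217, and 0.257 without that embryo). Within single lines, bcd RNAi had 6 members higher and 6 lower at 14D (28.5% and 34.2% of all genes), 2.4x bcd had 4 and 7 (24% and 35.7%) and hb RNAi had 9 and 8 (38.8% and 30.9%). With 1 embryo in the hb RNAi arm at cycle 13, the line and the library cannot be told apart.

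At cycle 14D alone, where each line had 2 embryos, the lines differed in 7 of 25 members (6 of 24 without eIF4E-5), beside 17.3% of all genes. The bcd RNAi embryos had the higher eIF-1A, eIF-2alpha, eIF-5A and eIF3-S9 and the lower eIF5. eIF-2alpha differed the most, with 115.2 and 103 FPKM in bcd RNAi, 39.5 and 35.6 in 2.4x bcd and 50.5 and 44.4 in hb RNAi (F test adjusted p = 0.0025). It was 2.85-fold higher in bcd RNAi than in 2.4x bcd, a log2 difference of 1.51 (SE 0.20, adjusted p = 0.00125). The same order held at cycle 13 between these lines, with 189 and 165 against 64.2 and 70.5 FPKM. Maternal age, which differed between these lines, cannot be told apart from the line. Between bcd RNAi and 2.4x bcd 9.69% of all genes were called higher and 13.1% lower. In hb RNAi against bcd RNAi these shares were 3.39% and 1.96%, and against 2.4x bcd they were 1.44% and 1.73%.

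eIF-1A was at 210.1 and 208 FPKM in bcd RNAi, 101 and 110.3 in 2.4x bcd and 125 and 106 in hb RNAi (adjusted p = 0.0104). eIF-5A was at 3667 and 3788, 1912 and 2313, and 2161 and 1697 FPKM in that order (adjusted p = 0.0122). eIF3-S9 was at 286 in both bcd RNAi embryos, 159 and 168 in 2.4x bcd and 223 and 186 in hb RNAi (adjusted p = 0.0341). In each of these the bcd RNAi pair lay above the 4 other embryos.

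eIF5 ran the other way, with 53.2 and 50.1 FPKM in bcd RNAi, 101 and 80.2 in 2.4x bcd and 112 in both hb RNAi embryos (adjusted p = 0.0116). eIF6 was at 69.0 and 78.8 FPKM in bcd RNAi, 37.5 and 35.4 in 2.4x bcd and 30.8 and 48.3 in hb RNAi (adjusted p = 0.04). eIF4E-5 was at 2.60 and 1.48, 0.778 and 0.703, and 3.02 and 4.58 FPKM, the higher values all outside 2.4x bcd. With the TPM table eIF3-S9 (adjusted p = 0.715) and eIF6 (adjusted p = 0.455) were not called, and over all other settings eIF3-S9 lost its call in 11 of 23 and eIF6 in 13 of 23. The spread behind these tests is shared with the embryos of cycle 13: with the 6 embryos of cycle 14D alone, 1 member was called, eIF-2alpha (adjusted p = 0.0218). Leaving out either bcd RNAi embryo left 2 calls and leaving out either 2.4x bcd embryo left 4.

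The zld embryos were compared with wild type at the 5 stages that both had, within the TruSeq kit. The paper describes its wild-type dataset as one from an earlier study, with the reads mapped again. Genotype and study therefore cannot be told apart here, and the estimated depth differed as well. Here 8 of 23 members tested were higher in zld and 0 lower (7 of 22 without eIF4G2, which was below a mean of 1 FPKM in wild type), beside 35.2% of all genes (30.8% higher and 4.38% lower), so that the members moved with the table as a whole. The median difference was 0.41 over the members and 0.36 over all genes. Scaling each embryo by the median ratio of its genes moved the median of all genes to -0.09 and turned the split of called members into 3 higher and 6 lower, with the share of called genes that were higher going from 87.6% to 37.9%. Differences in this comparison are therefore relative to that shift. They also ran with transcript length, from a median of -0.23 for genes with transcripts under 1000 bases to 1.08 for those over 4000.

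eIF6 (2R, 23849246 to 23850301, minus strand) was the member whose difference was called in every setting. It was at 94.6 FPKM in zld at cycle 11, 64.1, 69.5 and 39.9 at cycle 13, 59.0 at 14A, 55.2 at 14B and 46.6 at 14D. In wild type it was at 95.3 FPKM at cycle 11, 19.6 at cycle 13 and 7.46 to 15.98 in the 5 embryos of cycle 14. The genotypes were close at cycle 11 and did not overlap after it. eIF6 was 3.19-fold higher in zld over the stages (log2 difference 1.67, SE 0.33, adjusted p = 0.00369), 1.17 after median-ratio scaling and 1.76 after removal of the length trend. It overlaps ytr, and the unstranded reads of the overlap cannot be told apart. The same limit holds for other members that overlap genes in the annotation. Among them are eIF5 (CG46312), eIF-2beta (ver), eIF2B-alpha (CG42557 and CG42558), eIF2B-delta (Mtmr6), eIF2B-gamma (CG8192), eIF4AIII (Coq2) and eIF-2alpha (rngo). The part of such reads in their differences was not tested.

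The scaffolds were the next. eIF4G2 was at 11.1 FPKM in zld at cycle 11, 6.26, 6.77 and 35.9 at cycle 13, 1.85 at 14A, 4.65 at 14B and 5.18 at 14D, against 0.339 to 1.85 in the 7 wild-type embryos. It passed the filter on low values through the zld embryos, so that its call adds nothing to these values. eIF4G was at 84.1 FPKM in zld at cycle 11, 45.5, 64.05 and 142 at cycle 13, 37.0 at 14A, 56.7 at 14B and 54.1 at 14D, against 52.3 in wild type at cycle 11 and 13.5 to 32.9 later (2.40-fold, log2 difference 1.26, SE 0.28, adjusted p = 0.00571). Both were higher in zld at each of the 5 stages.

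eIF5B was at 37.6 FPKM in zld at cycle 11, 21.46, 17.54 and 31.7 at cycle 13, 8.06 at 14A, 11.4 at 14B and 15.2 at 14D. In wild type it was at 33.7 FPKM at cycle 11, 6.47 at cycle 13 and 1.57 to 3.37 at cycle 14. It was thus 2.69-fold higher in zld (log2 difference 1.43, SE 0.29, adjusted p = 0.00401), with little between the genotypes at cycle 11. eIF3-S10 was at 184 FPKM in zld at cycle 11, 97.3, 118 and 195 at cycle 13, 141 at 14A, 186 at 14B and 169 at 14D (1.97-fold, log2 difference 0.98, SE 0.25, adjusted p = 0.0126). It was higher in zld at 4 of 5 stages. eIF3-S8 (0.75), eIF3-S9 (0.71) and eIF2B-epsilon (0.71) were called as well. On the other side, eIF-5A was lower in zld at each of the 5 stages but was not called. eIF-4B, too low in FPKM to be tested, was at 0 to 0.5515 FPKM in zld against 1.238 to 2.473 in wild type. Its TPM values, 200.1 to 346.7 in zld against 183.5 to 262.2 in wild type, did not show this.

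After median-ratio scaling, eIF6 and eIF5B (0.98) were still called and eIF4G (0.75), eIF3-S10 (0.46), eIF3-S8 (0.23), eIF3-S9 (0.19) and eIF2B-epsilon (0.26) were not. After removal of the length trend the genes called before kept their direction, and eIF6 alone of them its call, while 3 other members were called lower. The third zld embryo at cycle 13, with 5 slices, had the highest eIF4G2 and eIF4G of all 25 embryos.

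The SMARTseq2 lines and the TruSeq embryos were compared at cycles 13 and 14D, with 11 and 6 embryos, as a difference between sets of libraries only. eIF5 was far lower in the SMARTseq2 set and eIF-2beta and the eIF2B subunits higher. Of 24 members tested 11 were higher and 6 lower, that is 70.8% of them (10 and 6 of 23 without eIF-4B, which was below a mean of 1 FPKM in the TruSeq embryos), beside 49.6% of all genes called (34% higher and 15.6% lower). The median difference was 0.45 over the members and 0.32 over all genes. Median-ratio scaling moved the latter to 0.12, the split of the members to 6 higher and 6 lower and the share of called genes that were higher from 68.5% to 56.9%.

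eIF5 (X, 15987008 to 15991974, minus strand) was at 31.4, 70.3 and 112 FPKM in the lowest, median and highest of the 11 SMARTseq2 embryos. In the 14 TruSeq embryos of every stage it was at 317, 409 and 482. The sets did not overlap at any stage, and in the comparison at cycles 13 and 14D eIF5 was 5.61-fold lower in SMARTseq2 (log2 difference -2.49, SE 0.24, adjusted p = 2.92e-07). The TPM table gave -2.47, median-ratio scaling -2.71, and the wild-type embryos alone as the TruSeq arm -2.53. eIF5 did not differ between zld and wild type beyond the spread (-0.06, SE 0.15, adjusted p = 0.799).

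eIF-2beta (3L, 12525093 to 12526731, minus strand) was at 16.2, 37.7 and 57.4 FPKM in the 6 TruSeq embryos and at 87.5, 186 and 346 in the 11 SMARTseq2 embryos (4.93-fold, log2 difference 2.3, SE 0.32, adjusted p = 1.01e-05). eIF2B-delta was at 2.2, 5.79 and 9.78 against 11.8, 24.7 and 53.9 FPKM (4.4-fold, 2.14, SE 0.31, adjusted p = 1.66e-05). eIF2B-alpha was at 17.9, 34.5 and 50.5 against 50.1, 87.2 and 132 FPKM (2.82-fold, 1.49, SE 0.23, adjusted p = 2.9e-05). The sets met only for eIF2B-alpha. Wild type at cycle 11, a TruSeq embryo outside this comparison, had 313 FPKM of eIF-2beta, well inside the SMARTseq2 range.

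eIF2B-epsilon was at 4.30, 9.45 and 22.3 FPKM in the lowest, median and highest TruSeq embryo against 12, 19.1 and 63.6 in SMARTseq2 (2.79-fold, adjusted p = 0.00156), and eIF-2gamma at 22.6, 36.0 and 60.9 against 58.6, 76.7 and 104 FPKM (2.05-fold, adjusted p = 0.000963). The sets overlapped for both. The further genes called higher were eIF2B-beta, eIF-4E, eIF2B-gamma, eIF-4B, eIF-3p66 and eIF-4a, by 0.43 to 0.77 on the log2 scale, and none of these kept its call when the length trend was removed.

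On the lower side stood eIF-5A, at 2643, 5530 and 7307 FPKM in the TruSeq embryos against 1697, 2313 and 5006 in SMARTseq2 (log2 difference -0.91, adjusted p = 0.0109), and eIF3-S9, at 249, 352 and 409.5 against 69.2, 186 and 286 (-1.01, adjusted p = 0.00214). eIF4G (-1), eIF3-S10 (-0.89) and eIF3-S8 (-0.72) were also called, and these are genes of long transcripts. The sets overlapped for all 5 of these genes. Over all genes the difference went from a median of 0.75 for transcripts under 1000 bases to -0.48 for those over 4000. Against that trend eIF-5A, whose transcript is 752 bases, went to -1.74 when the trend was removed. With the wild-type embryos alone as the TruSeq arm, 11 members were called and eIF4G was at 0.05. The genes called in each setting were eIF5, eIF-2beta, eIF2B-alpha and eIF-5A.

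**Figure D3:**
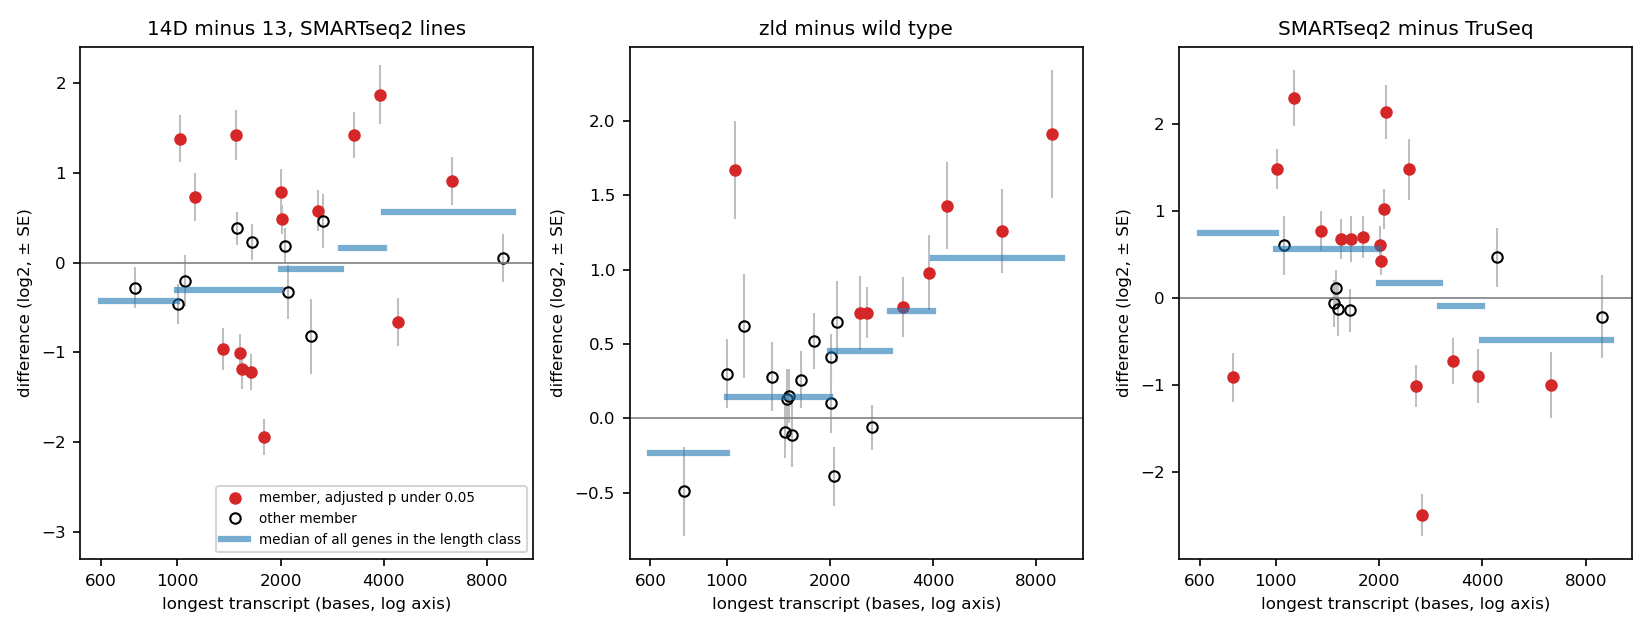
Difference of each member against the length of its longest transcript. The panels give, from left to right, cycle 14D minus 13 in the SMARTseq2 lines, zld minus wild type, and SMARTseq2 minus TruSeq. Points are genes with their log2 difference in FPKM + 1, bars are the standard error, the axis of length is logarithmic, and the line gives the median over all genes in 5 classes of length. In the left panel the line climbs from -0.43 to 0.56. In the middle panel the line climbs from -0.23 to 1.08 and most members lie along it, with eIF6 above. In the right panel it descends from 0.75 to -0.48, with eIF5 far below and eIF-2beta above.

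The transcripts of eIF-2gamma, the GTP-binding subunit, shifted in share between stages in the SMARTseq2 lines, while the gene as a whole was not called (0.19, SE 0.19, adjusted p = 0.399). This gene was singled out after its values were seen and is described without a test. In flies eIF-2gamma shares its promoter region and first exons with Su(var)3-9, a histone methyltransferase gene, and the annotation gives it 3 transcripts. FBtr0310387, of 1886 bases, starts with an exon at 3R, 15262797 to 15262937, and FBtr0310386, of 1922 bases, with one at 15263282 to 15263458, both on the minus strand.

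In the SMARTseq2 embryos of cycle 13, FBtr0310387 was at 0.811 and 0.846 TPM in bcd RNAi, 3.63 and 3.21 in 2.4x bcd and 0.579 in hb RNAi. At cycle 14D it was at 27.5, 32.6 and 43.0 TPM in the lowest, median and highest embryo, and its share of the gene's TPM went from 3% to 7.93% at cycle 13 to 47.1% to 78.4%. FBtr0310386 was at 18.6 to 42.2 TPM at cycle 13 and 8.24 to 29 at 14D, so that FBtr0310387 was the higher in 5 of the 6 embryos of 14D and level with it in the second hb RNAi embryo. In the 14 TruSeq embryos FBtr0310387 stayed at 0 to 10.8 TPM, a share of 0% to 24.2%, with 2.43 TPM in wild type at 14D. No TruSeq embryo reached the range of the SMARTseq2 embryos at 14D.

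Over the same embryos Su(var)3-9 itself had 6.98, 15.1 and 19.8 FPKM in the lowest, median and highest SMARTseq2 embryo at cycle 13 and 47.1, 58.8 and 75.5 at cycle 14D, and 11.9, 16.03 and 41.4 in wild type. Since the genes overlap, reads of one may have been given to a transcript of the other, and its part in the change of FBtr0310387 was not tested. The other member with a transcript share that went past the spread by more than a few percentage points was eIF4E-6, whose level is near 0.

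**Figure D4:**
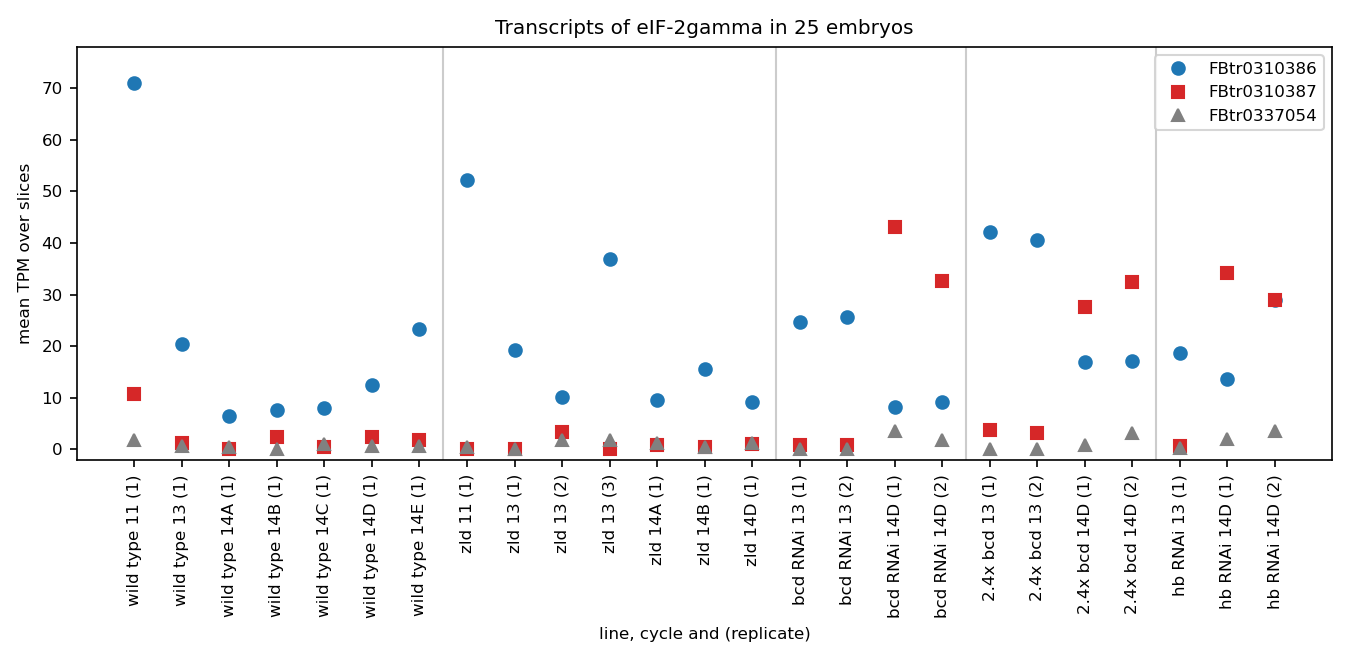
Level of the 3 transcripts of eIF-2gamma in the 25 embryos. The vertical axis is the mean TPM over the slices of an embryo and the horizontal axis gives the embryos grouped by line and stage. FBtr0310387 lies between 0.579 and 3.63 in the 5 SMARTseq2 embryos of cycle 13, between 27.5 and 43.0 in the 6 of cycle 14D, and at or under 10.8 in the 14 TruSeq embryos.

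To ask whether the factors are patterned along the axis, each embryo was divided into 3 equal parts and the anterior part was set against the posterior part. In wild type 1 of 24 members tested was called, beside 2.89% of all genes (1.24% higher and 1.65% lower in front), and it was eIF-4E, lower in front (log2 difference -0.43, SE 0.11, adjusted p = 0.0379). Its anterior and posterior levels were 717.9 and 689.9 FPKM at cycle 11, 136.2 and 184.6 at cycle 13, 56.31 and 67.78 at 14A and 35.04 and 55.16 at 14B. They were 32.76 and 51.96 FPKM at 14C, 73.99 and 85.60 at 14D and 32 and 59.32 at 14E. The posterior was thus higher in 6 of 7 embryos, and the exception was the embryo of cycle 11, where eIF-4E was most abundant. In the embryo of 14B the anterior level came from 1 slice only. Without the first and the last slice the difference was -0.17 and was not called, and it was also lost without the wild-type embryo of cycle 13, 14B, 14C or 14E or the second bcd RNAi embryo of cycle 13, with which the fit shares its spread. In the 5 wild-type embryos of cycle 14, eIF-4E in the hindmost slice was above the rest by 0.47 to 1.7 (log2). At cycles 11 (-0.28) and 13 (-0.07) it was not. The test of that slice over all genotypes, given below, did not call eIF-4E.

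In the SMARTseq2 lines 0 of 24 members were called by limma between anterior and posterior (3 at an unadjusted p under 0.05, and 0 called with the TPM table), beside 0.978% of all genes (0.643% higher and 0.336% lower in front). The F test across the 5 genotypes called 0 as well (1 at an unadjusted p under 0.05, and 0 with the TPM table), beside 0.496%. Neither says that the messengers are evenly spread.

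Between the middle part and the mean of the outer parts, over all genotypes, 1 of 24 members was called, beside 1.94% of all genes (0.496% higher and 1.45% lower in the middle). eIF-2beta was lower in the middle by a mean log2 difference of -0.17 (SE 0.04, adjusted p = 0.0259). It was lower there in 18 of 22 embryos, with differences from -0.38 to 0.24, and in wild type in 6 of 7. The call was lost without the zld embryo of 14B and without any 1 of 6 SMARTseq2 embryos (both 2.4x bcd embryos of cycle 13, the first of 14D, the second bcd RNAi embryo of cycle 13 and both hb RNAi embryos of 14D), and without the first and last slices (-0.11).

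The hindmost slice, where the pole cells form, differed from the rest of the embryo in 4 of 24 members, beside 8.76% of all genes (2.57% higher and 6.19% lower). eIF-2beta was higher there by 0.34 (SE 0.10, adjusted p = 0.0325), in 18 of 22 embryos. In the 5 SMARTseq2 embryos of cycle 13 its difference was 0.44 to 0.88, and in the 6 of cycle 14D it was -0.13 to 0.39, although the change between these stages was not tested. The lower ones were eIF3-S10 (-0.39, SE 0.12, adjusted p = 0.0409, lower in 16 of 22), eIF4AIII (-0.24, SE 0.07, adjusted p = 0.0392, in 17 of 22) and eIF-4a (-0.16, SE 0.04, adjusted p = 0.0277, in 18 of 22). The 4 calls became 0 without the zld embryo of 14B, without the hb RNAi embryo of cycle 13, or with only the embryos whose hindmost slice held at least 4 times the pole cell gene pgc of their other slices. They became 1 or 2 without either bcd RNAi embryo of cycle 13, the wild-type embryo of 14A or 14C, or the zld embryo of 14A.

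**Figure D5:**
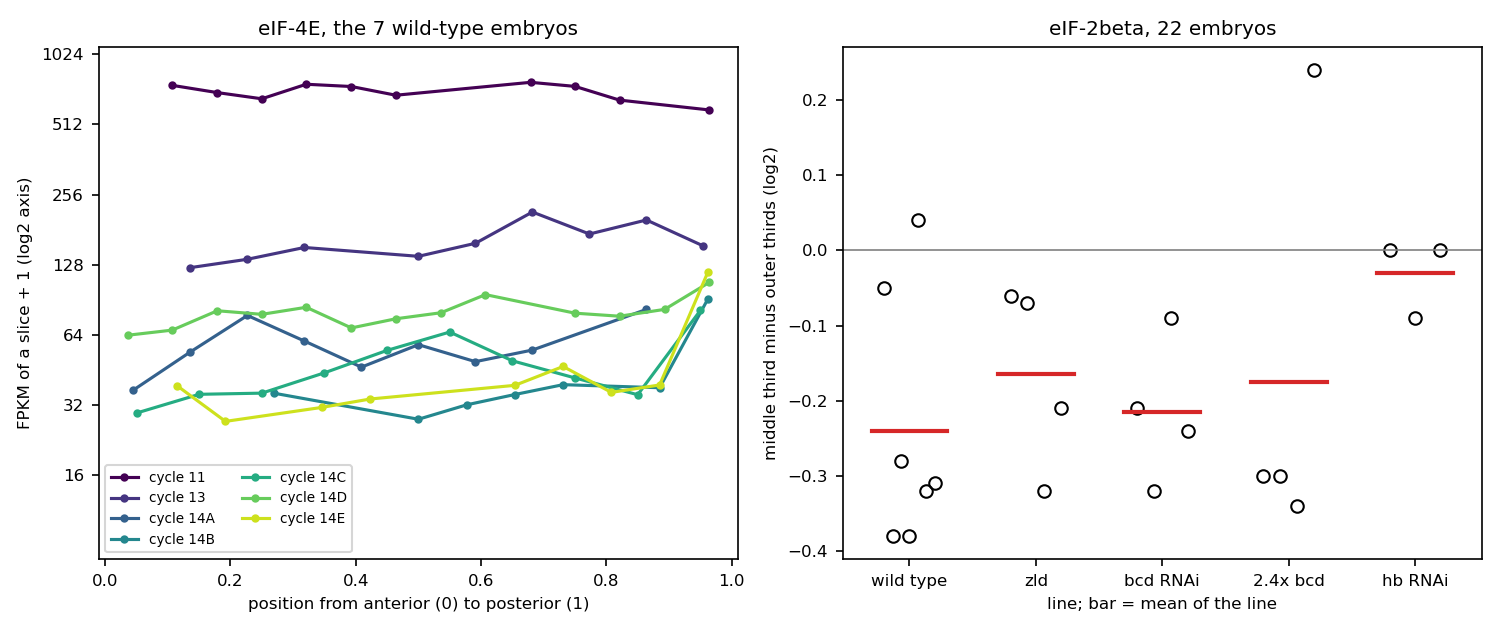
Position of eIF-4E and eIF-2beta. The left panel plots the FPKM + 1 of eIF-4E in each slice, on a log scale, against position from anterior to posterior for the 7 wild-type embryos, with the embryo of cycle 11 well above the others. The right panel plots, for each of 22 embryos by line, the log2 difference of eIF-2beta between the middle and the outer parts, from -0.38 to 0.24, with 18 embryos below 0.

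Regulators and partners of these factors were followed in the same fits. Of 24 listed genes, 6 rose and 9 fell between cycles 13 and 14D in the SMARTseq2 lines, beside the 69.3% of all genes given above (33.2% higher and 36.2% lower). Of those that fell, cup passed the filter only through cycle 13. aret, the translational repressor Bruno, went from 158.7 to 256 FPKM in the 5 embryos of cycle 13 to 2.63 to 9.18 at cycle 14D (log2 difference -5.32, adjusted p = 7.18e-09). 4EHP, a cap-binding competitor of eIF4E, went from 115.5 to 289.1 FPKM to 10.4 to 22.7 (-3.28, adjusted p = 1.1e-07), and smg, the repressor Smaug, went from 68.0 to 162 FPKM to 6.45 to 24.3 (-2.90, adjusted p = 3.63e-06). These maternal repressors did not overlap between the stages, as eIF-4E itself did not, which is a description only.

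NAT1, an eIF4G-related factor of cap-independent initiation, rose by 2.2 (adjusted p = 0.000107), pAbp, the poly(A)-binding protein that contacts eIF4G, by 1.51 (adjusted p = 0.00793) and Lk6, the kinase of eIF4E, by 0.84 (adjusted p = 0.0202). In wild type 1 regulator rose and 4 fell of 23 tested, near the background of 20.6% of all genes (8.88% higher and 11.7% lower), and 4EHP (slope -0.50, adjusted p = 0.0221) and aret (-0.95, adjusted p = 0.0302) were again among those that fell. In zld 11 of 24 were higher and 0 lower than in wild type, beside 30.8% and 4.38% of all genes and the shift of 0.36 in the median of all genes that scaling removes. The helicase bel (2.32, adjusted p = 0.00199) and tyf (1.67, adjusted p = 0.00738) were among them. Tor, at 2.23 to 19.4 FPKM in zld and 0.217 to 1.93 in wild type, passed the filter through the zld embryos and is given as levels only. Of 9 elongation and termination factors, 4 rose and 1 fell between cycles 13 and 14D, a smaller share than the 69.3% of all genes, and 1 of the 4, Ef1alpha100E, passed the filter only through cycle 14D. EF2, which moves the ribosome along, rose by 1.40 (adjusted p = 0.000458), and Elf, the termination factor eRF3, fell by 1.5 (adjusted p = 0.00103).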

How the data were processed

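The authors mapped the reads with STAR 2.3.0.1 to FlyBase r6.03, dropped reads ambiguous between fly and yeast, and ran Cufflinks 2.2.1, whose gene FPKM values they deposited after removing slices with too few reads or a low mapping rate. They also deposited kallisto 0.42 estimates per transcript. The headers of that table call the values FPKM, but each column has the same fixed sum, as TPM has, so the deposited values were treated as TPM. The submitters' processing notes also name CASAVA 1.8.0. Slices with values numbered 338 in the FPKM and 340 in the TPM table, and 1 further column was not used. Counting of overlapping genes was without strand.

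Per embryo the mean over slices was taken, and log2(FPKM + 1) was fitted in limma 3.58.1 (R 4.3.3; lmFit, eBayes with a mean trend, two-sided) over all genes whose mean was at least 1 FPKM in the embryos of the fit, with Benjamini-Hochberg adjustment over all of them and a threshold of 0.05. Fold changes are on the log2(FPKM + 1) scale and understate those of low genes. Slice k of n was placed at (k - 0.5)/n, in embryos with at least 6 slices. SMARTseq2 fits had line and stage, the zld fit genotype and stage, the kit fit kit and stage. Nothing states that embryos of a group came from separate crosses, so p-values measure the spread between embryos. Named genes were the members called in a comparison, at most 5 per direction with values by embryo, the 5 most abundant, those below 1 FPKM, and at most 3 per direction of the listed partners. The members and lists were chosen with earlier results of these data known. Genes were placed by symbol and FlyBase number with the Release 6 annotation (13539 of 13587 matched), and 30048 of 30385 transcripts were. The code was tested on simulated data with known changes in 66 or 67 genes at each fold, drawn from the more abundant genes. In the fits of level, far more genes were called in the real data. The adjustment was thus stricter in the simulation, and the shares that follow are not the power of the real fits. Of 2-fold changes, the wild-type trend recovered 0% and stage by line 2.99%. Stage and the lines at 14D each recovered 26.9%, the kit fit 29.9% and the zld fit 47.8%. The position fits recovered 67.2% to 98.5%. Of 4-fold changes, the wild-type trend recovered 21.2% and stage by line 60.6%. The hindmost-slice fit called 1.59% of unchanged genes. A member that was not called is not shown to be unchanged. Figures were drawn with matplotlib 3.10.9.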

Additional observations from a re-analysis of the deposited data

Results flagged for a closer look

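Under the same contrast, cycle 14D minus 13, the change differed between bcd RNAi, 2.4x bcd and hb RNAi in 11 members (limma F test of line by stage over 5 and 6 embryos, adjusted over all genes). In the order bcd RNAi, 2.4x bcd and hb RNAi, the log2 change of eIF5 was -0.41, 0.43 and 1.80 (adjusted p = 0.00212). eIF3-S10 changed by 1.79, 0.91 and 3.43 (adjusted p = 0.00217), eIF3-S8 by 1.24, 0.80 and 2.63 (adjusted p = 0.00285) and eIF3-S9 by 0.44, 0.06 and 1.55 (adjusted p = 0.00828). eIF-3p66 changed by 0.78, 0.16 and 1.76 (adjusted p = 0.0198), eIF4AIII by 1.10, 0.94 and 2.62 (adjusted p = 0.027) and eIF4E-5 by 1.54, 0.64 and 2.24 (adjusted p = 0.0406). In each of these the hb RNAi line had the largest rise. eIF4E-5 had passed the filter on low values only through the embryos of cycle 14D, so that its adjusted p supports nothing.

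The others had their lowest value in hb RNAi. eIF-5A changed by -0.02, 0.19 and -1.39 (adjusted p = 0.00534), eIF-1A by -0.88, -1.10 and -1.90 (adjusted p = 0.0413), eIF-2alpha by -0.70, -0.83 and -1.75 (adjusted p = 0.0431) and eIF6 by 0.63, -0.47 and -1.03 (adjusted p = 0.0213). Without the single hb RNAi embryo at cycle 13 none of the 11 was called, with adjusted p from 0.219 for eIF5 and eIF6 to 0.886 for eIF4AIII. In that embryo short transcripts were high and long ones low, as given in the report. The part of that pattern in these differences was not tested beyond leaving the embryo out and removing the length trend. After that removal, of the 11 members only eIF-1A, eIF4AIII, eIF5 and eIF6 kept their call. The eIF3 subunits, eIF-5A, eIF-2alpha and eIF4E-5 lost it.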

How the results depend on the processing

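Counts below are members called. For the wild-type stage trend, 5 members became 1 without the filter on low values, 2 without the eBayes trend, 1 with kallisto TPM and 3 with the length-trend correction, and 0 to 5 with each embryo left out. For stage in the SMARTseq2 lines 15 became 12 to 15 with each embryo left out. For stage by line 11 became 7 without the filter, 17 with TPM, 5 with the length-trend correction, 0 without the hb RNAi embryo of cycle 13, and 0 to 14 over all embryos left out. For the lines at 14D 7 became 1 with only the 6 embryos of that stage and 2 to 10 with an embryo left out. For zld minus wild type 8 became 5 without the filter, 14 with TPM, 4 with the length-trend correction and 6 to 11 with an embryo left out. For SMARTseq2 minus TruSeq 17 became 8 with TPM, 11 with the wild-type embryos alone and 13 to 17 with an embryo left out. With TPM, eIF-4B went to -0.09, and with wild type alone eIF4G went to 0.05, where both had been called the other way. The cause was not tested. For anterior minus posterior in wild type 1 became 0 with a pseudocount of 5, without the filter, without the eBayes trend, with TPM, with the embryo cut into front and back only, without the first and last slices and with only cycles 11 and 13, and 0 to 1 with an embryo left out. In the SMARTseq2 lines, and between genotypes, the count was 0 to 0. For middle minus ends 1 became 0 with TPM, without the end slices and without the zld embryo of 14B, and 0 to 1 with an embryo left out. For the hindmost slice 4 became 0 without the filter, with TPM, without the zld embryo of 14B and with only the embryos rich in pgc, 1 without the eBayes trend, 2 with only the last labelled slice, and 0 to 6 with an embryo left out. The replicate numbers were not taken to pair embryos. In 10 pairs of groups the correlation of same-numbered deviations was -0.312 to 0.222, with 3 above 0.1. Without a reference for unpaired embryos, this cannot exclude a batch shared by number. With the number as a replicate block, 13 members were called for stage, 8 for stage by line and 7 for the lines at 14D. Over single genes, 1279 values kept direction and call, 359 lost the call and 2 reversed. The length-trend correction, the subsets of cycles, the pgc subset and the 14D-only fit were chosen after seeing the data. Depth limits what can be said of the eIF4E paralogs, and the SMARTseq2 depth is unknown.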
